A study of Mus musculus with 9 samples.

Results

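Insulin and 9 further genes of beta cell identity were followed in αTC1 cells, a mouse line that grew from pancreatic alpha cells and makes glucagon. The members were chosen by name from the deposited count table: the insulin genes Ins1 and Ins2, the transcription factor genes Pdx1, Mafa, Nkx6-1, Pax4 and Neurog3, and Ucn3, Slc2a2 and Npy. All 10 have a row among the 33212 genes of the table, and members with no count were kept. Poly-A RNA was sequenced from 5 libraries of cells kept with the solvent DMSO for 7 days and from 4 libraries of cells kept with 4 µM EPZ011989 for 7 days. EPZ011989 inhibits EZH2, the enzyme of Polycomb repressive complex PRC2 that methylates lysine 27 of histone H3. Both groups are the same cell line, so every comparison is between treated and solvent-treated cultures of 1 line. The labels speak of biological replicates but not of separate cultures, and the p-values therefore reflect only how far these libraries spread, which may be technical.

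Beta cells make insulin, and alpha cells of the same islets make glucagon. In the developing pancreas NEUROG3 starts the endocrine programme, PAX4 favours the beta over the alpha branch, and PDX1, NKX6-1 and MAFA then hold the beta cell state and act on the insulin genes. SLC2A2 is the glucose transporter GLUT2 of rodent beta cells, UCN3 is a peptide of mature beta cells, and NPY is a neuropeptide that immature beta cells make. Polycomb marks are known to cover genes of other cell fates, among them many developmental regulators.

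The insulin genes are similar in sequence and are shown here because only Ins2 had any counts. The first 294 of 327 coding bases of the GENCODE M21 transcript Ins1-201 and the first 300 of 333 of Ins2-201 are given from the start codon, with capitals at each base that is not identical in the alignment, or that lies opposite a gap.
Ins1: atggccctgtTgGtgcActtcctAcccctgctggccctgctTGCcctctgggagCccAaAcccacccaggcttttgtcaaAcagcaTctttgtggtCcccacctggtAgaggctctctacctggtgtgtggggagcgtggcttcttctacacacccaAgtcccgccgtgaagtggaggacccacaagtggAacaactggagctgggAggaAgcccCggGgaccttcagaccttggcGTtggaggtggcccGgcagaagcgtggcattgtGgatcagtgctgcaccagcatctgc
Ins2: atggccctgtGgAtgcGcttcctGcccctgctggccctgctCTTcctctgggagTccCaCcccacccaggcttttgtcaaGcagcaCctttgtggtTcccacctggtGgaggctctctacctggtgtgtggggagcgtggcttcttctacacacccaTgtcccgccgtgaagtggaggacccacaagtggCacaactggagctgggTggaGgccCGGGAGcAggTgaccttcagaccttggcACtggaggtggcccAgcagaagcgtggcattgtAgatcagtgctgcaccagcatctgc
In the alignment of the whole coding sequences 302 bases were identical, 25 differed and 6 lay opposite a gap, an identity of 92.4% over the aligned bases. The longest identical coding run was 56 bases, and the whole transcripts shared no stretch of 75 bases. Read length and the handling of reads that match both genes are not given in the sources used here, so how far such reads were told apart was not tested.

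Of the 10 members, 3 rose with EPZ011989 (Ins2, Mafa and Npy), 0 fell, and Nkx6-1 was well expressed in both groups without passing the test. The other 6 had too few counts to be tested. A gene that is near 0 in DMSO reaches the count filter only through the EPZ011989 libraries, so the 4 tested members do not stand for all 10. The test was the quasi-likelihood F test of edgeR with Benjamini-Hochberg adjustment over all 14754 genes that passed the filter, at an adjusted p under 0.05. In that comparison 16.2% of all tested genes were called higher and 7.96% lower, or 2388 and 1174 genes. Upper-quartile scaling moved that split to 2735 and 776 genes. The median log2 fold change was 2.30 over the 4 tested members and 0.03 over all tested genes.

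**Figure D1:**
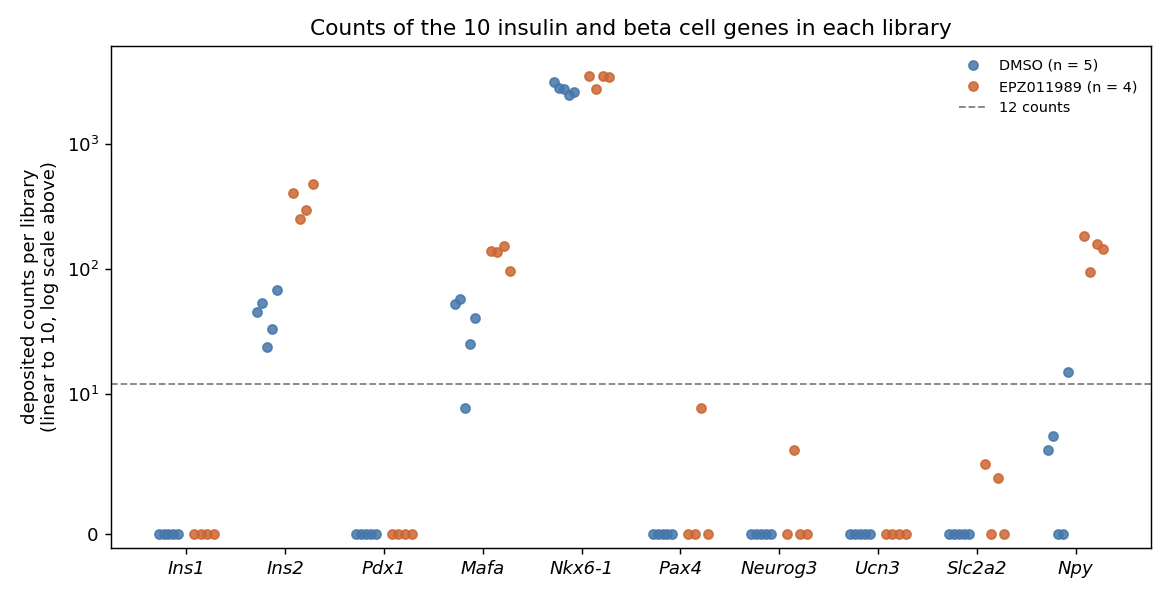
Deposited counts of each member (x axis) in each library (points; blue, 5 DMSO libraries; orange, 4 EPZ011989 libraries), on an axis that is linear to 10 and logarithmic above; the dashed line marks the limit of 12 counts. Ins1, Pdx1 and Ucn3 lie at 0 throughout, Pax4, Neurog3 and Slc2a2 stay under the line, and Nkx6-1 lies between 2454 and 3472 counts in every library.

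Ins2 lies on chromosome 7 and encodes insulin 2. Its counts were 45, 54, 24, 33 and 68 in DMSO replicates 1 to 5 and 400, 249, 295 and 478 in EPZ011989 replicates 1 to 4. As CPM, the count as a share of the TMM-scaled library total, these were 0.609, 0.796, 0.332, 0.557 and 0.972 CPM in DMSO and 5.30, 3.50, 3.89 and 6.71 CPM with EPZ011989. The lowest EPZ011989 library was thus above the highest DMSO library, and replicates 1 and 4 of EPZ011989 were the highest. The means were 0.653 ± 0.243 CPM (SD, n = 5) and 4.85 ± 1.46 CPM (n = 4), a log2 fold change of 2.89 ± 0.30 (SE; adjusted p = 5.72e-05, edgeR). Values of 1 were the most frequent in the table (3970), but 4 (3046) and 5 (2732) were more frequent than 2 (2108) or 3 (2160), so some fragments may add about 4 counts and others fewer. If each added 4, the groups held about 56 and 356 Ins2 fragments, and the ratio of 7.42 has an exact 95% interval of 5.59 to 10.04 for counting error only.

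The Ins2 count covers a long gene model. In GENCODE M21 the gene spans 64.7 kb (GRCm38, chr7:142678656-142743381, minus strand) with 9 transcripts. The short transcript Ins2-201 has 3 exons and 478 bases within chr7:142678659-142679726. Of the 6 exon blocks of the gene, 4 lie more than 1 kb from that transcript and hold 578 bases, against 734 bases in the others. A count can come from any of these blocks, and the annotation that the authors counted on is not given in the sources used here. No exon of another gene overlaps those of Ins2.

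Ins1, the second insulin gene (chr19:52264297-52265476, plus strand), had a count of 0 in all 9 libraries. At 12 counts per library, a count of 0 allows up to 0.158 to 0.203 CPM, for counting error only. The EPZ011989 libraries, in each of which Ins2 was counted, thus held no count of Ins1. The RefSeq window at the Ins1 start has letters of elements known from insulin promoters, shown because this is the silent insulin gene. The 250 bases before the annotated start (GRCm38.p6, chr19:52264047-52264296, plus strand) follow, with capitals at each match to TAAT, the core of the A boxes read by homeodomain factors such as PDX1, or to CATCTG, the E box bound by NEUROD1 with its partners, on either strand.
Ins1 upstream: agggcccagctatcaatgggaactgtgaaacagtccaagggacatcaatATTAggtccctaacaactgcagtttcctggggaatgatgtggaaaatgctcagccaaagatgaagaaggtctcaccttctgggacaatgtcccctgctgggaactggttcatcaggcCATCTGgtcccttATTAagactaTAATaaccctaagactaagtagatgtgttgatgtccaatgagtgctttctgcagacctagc
Counting the base before the start as -1, the CATCTG match began at -84 and the 2 nearer TAAT matches at -71 and -61; the third TAAT match lies further upstream, and no matches overlap. The whole Ins1 window of 300 bases held 3 TAAT and 2 CATCTG matches. A CATCTG match is thus not wholly within the printed bases. Of all 32851 RefSeq windows of 300 bases (250 before to 50 after a start), 58.0% held TAAT and 17.2% held CATCTG on either strand. The 300-base Ins1 window held neither TGCTGA, letters within sites bound by MAF factors (19.5% of windows), nor TGACGTCA, the cAMP response element (1.79%), nor TATAAA (13.6%). A match describes letters only.

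Mafa (chr15:75745490-75748228, minus strand) encodes a MAF factor that activates insulin transcription in mature beta cells. Its levels were 0.717, 0.854, 0.125, 0.422 and 0.586 CPM in DMSO replicates 1 to 5 and 1.83, 1.91, 2.02 and 1.35 CPM in EPZ011989 replicates 1 to 4. DMSO replicate 3, with 9 counts, was the lowest, and the groups did not overlap. The means were 0.541 ± 0.282 CPM (SD, n = 5) and 1.78 ± 0.30 CPM (n = 4), a log2 fold change of 1.71 ± 0.43 (SE; adjusted p = 0.0132, edgeR). Without DMSO replicate 3 the log2 fold change was 1.44 (adjusted p = 0.00544, edgeR).

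Npy (chr6:49822710-49829507, plus strand) was at or near 0 in DMSO and had 94 to 184 counts with EPZ011989. Npy encodes neuropeptide Y. Its DMSO counts were 6, 7, 0, 0 and 15, and its EPZ011989 counts 184, 94, 157 and 144. In CPM, DMSO libraries lay between 0 and 0.214 and EPZ011989 libraries were at 2.44, 1.32, 2.07 and 2.02, with replicate 2 the lowest and no overlap between groups. The means were 0.0797 ± 0.0886 CPM (SD, n = 5) and 1.96 ± 0.47 CPM (n = 4), a log2 fold change of 4.57 ± 0.72 (SE; adjusted p = 9.07e-04, edgeR). At 4 counts each, about 7 fragments in DMSO stand against about 145, and the ratio of 24.2 has an exact 95% interval of 11.5 to 61.3 for counting error only.

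Nkx6-1 (chr5:101658139-101664996, minus strand), a homeodomain factor known for its part in beta cell identity, was well expressed in this alpha cell line. It was at 42.2, 41.1, 37.8, 41.4 and 36.9 CPM in DMSO and at 45.5, 38.2, 45.8 and 47.9 CPM with EPZ011989. EPZ011989 replicate 2 lay among the DMSO libraries and the other EPZ011989 libraries lay above them all. The means were 39.9 ± 2.4 CPM (SD, n = 5) and 44.3 ± 4.2 CPM (n = 4), which differed by 0.15 ± 0.08 on the log2 scale (SE; adjusted p = 0.221, edgeR) and did not pass. With EPZ011989 replicate 2 left out, the difference of 0.21 passed (adjusted p = 0.0315, edgeR), a fit in which 2377 genes were called lower in place of 1174.

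**Figure D2:**
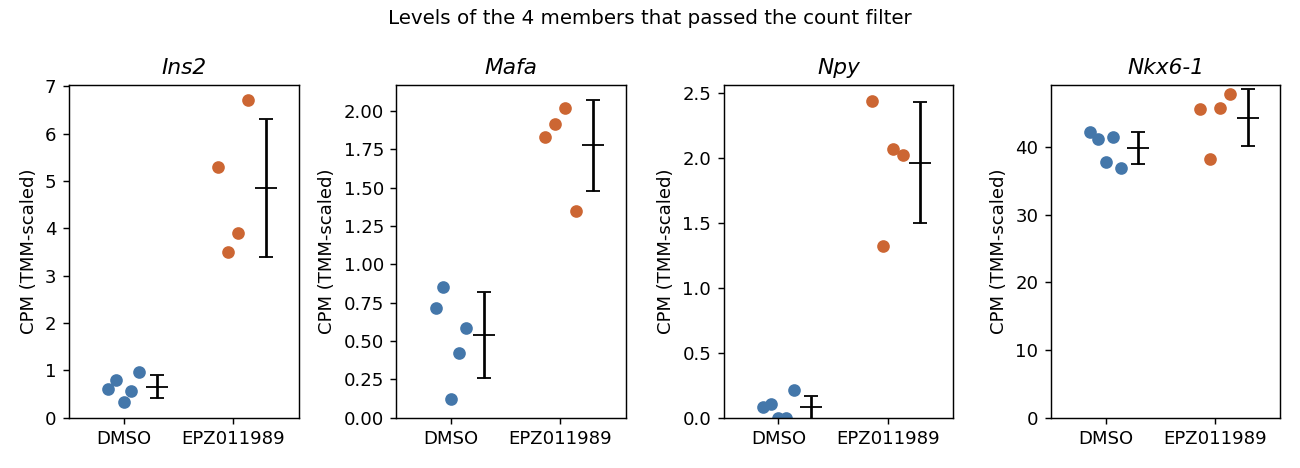
CPM (TMM-scaled, y axes from 0) of the 4 members that passed the filter, by group (x axis); points are libraries and the black marks are the mean ± SD of 5 DMSO and 4 EPZ011989 libraries. The groups do not overlap for Ins2, Mafa and Npy, and EPZ011989 replicate 2 at 38.2 CPM lies within the DMSO range for Nkx6-1.

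These rises took place among genes that often rose. Of the tested genes with a mean under 1 CPM 19.8% were called higher, of those at 1 to 10 CPM 34.0%, and of those at 10 to 100 CPM, where Nkx6-1 lies, 11.8%. Ins2 and Mafa both started between 0.5 and 0.7 CPM in DMSO. Of the 389 tested genes in that range 91 (23.4%) were called higher, 17 had a log2 fold change at least as large as that of Ins2, Ins2 included, and 47 one at least as large as that of Mafa. Groups that did not overlap, with EPZ011989 above DMSO, were found for 16.1% of all tested genes and for 3 members (Ins2, Mafa and Npy). The reverse, with EPZ011989 below DMSO, was found for 8.77% of tested genes and for 0 members.

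**Figure D3:**
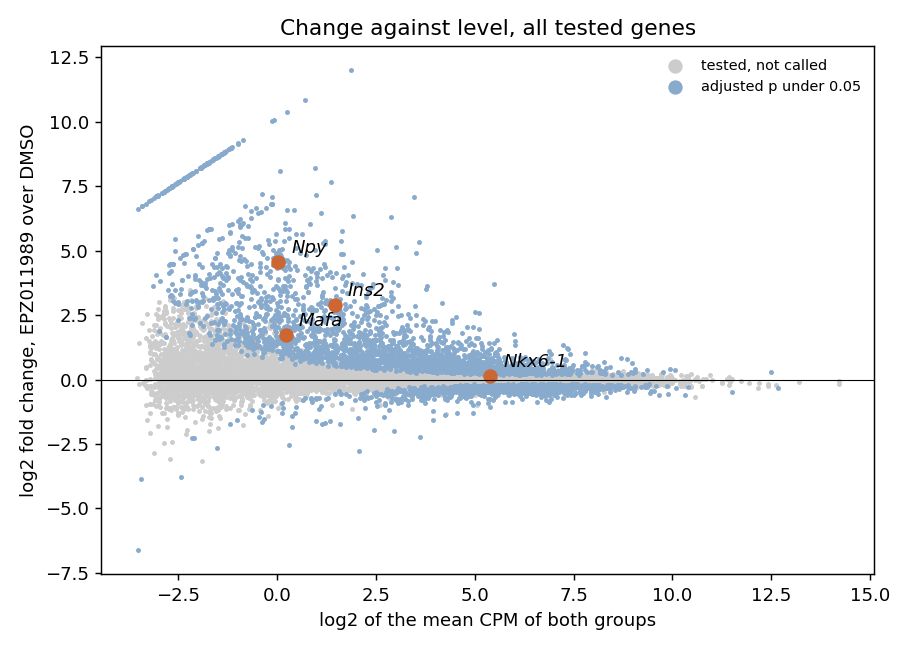
Log2 fold change (EPZ011989 over DMSO, y axis) against the log2 of the mean CPM (x axis) for the 14754 tested genes (blue, adjusted p under 0.05), with the 4 tested members in orange; the straight upper edge at low levels is made of genes at 0 in every DMSO library. Npy (4.57), Ins2 (2.89) and Mafa (1.71) lie among the many low genes that rose, and Nkx6-1 (0.15) lies near 0.

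The remaining factors stayed at or near 0. Pdx1, which encodes the factor that starts pancreas formation and drives insulin transcription (chr5:147269959-147275848, overlapping the noncoding Plut model), had no count in any of the 9 libraries. Neither did Ucn3 (chr13:3940688-3945349). A count of 0 in every library was found for 36.6% of all genes listed. Pdx1 and Ucn3 were thus under 0.158 to 0.203 CPM per library, the limit given for Ins1.

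The few counts of the other members were in 1 or 2 EPZ011989 libraries. Pax4 (chr6:28442334-28449353) had 9 counts in EPZ011989 replicate 3 and 0 elsewhere. Neurog3 (chr10:62133090-62134763) had 6 counts in EPZ011989 replicate 2 and 0 elsewhere. Its exon overlaps exons of Fam241b on the other strand, and whether reads were counted by strand is not known from the labels. Slc2a2 (chr3:28697903-28731359), whose model holds the antisense gene 1700112D23Rik, had 5 counts in EPZ011989 replicate 1, 4 in replicate 3 and 0 in the other 7 libraries. All of these are under the limit of 12 counts, so no fold is given. In a fit with no filter, adjusted p was 0.210 for Pax4, 0.236 for Neurog3 and 0.164 for Slc2a2 (edgeR).

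Levels can be set against each other only per length of exon. In CPM per kb of merged exons, DMSO means ran from Nkx6-1 at 12.7 through Ins2 at 0.498 and Mafa at 0.197 to Npy at 0.141. Ranges over the DMSO libraries overlapped between Ins2 (0.253 to 0.741) and Mafa (0.0455 to 0.312) and between Mafa and Npy (0 to 0.379), so that part of the order lies within the spread. With EPZ011989 the order was Nkx6-1 at 14.1, Ins2 at 3.70, Npy at 3.47 and Mafa at 0.649 CPM per kb. Ins2 (2.67 to 5.11) and Npy (2.34 to 4.31) again overlapped, while Mafa (0.492 to 0.737) lay below both. Per kb, 21.3% of tested genes were lower than Ins2 in DMSO and 42.6% with EPZ011989. Divided by the 478 bases of Ins2-201 instead, Ins2 was at 1.37 and 10.1 CPM per kb, or above 30.2% and 66.3% of tested genes.

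Glucagon stayed far above insulin. Gcg, the glucagon gene, had a level of 19280 ± 804 CPM (SD) in the DMSO libraries against 18633 ± 2338 CPM under EPZ011989, and did not pass (log2 fold change -0.05, adjusted p = 0.778, edgeR). Per kb of exon its level was 25925 times that of Ins2 in DMSO and 3373 times with EPZ011989. With the length of Ins2-201 these ratios were 9445 and 1229. In bulk RNA, a few cells with much Ins2 and many cells with little cannot be told apart.

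Direct partners of the members on the insulin promoter were mostly present before treatment. Among 17 genes listed as activators of the insulin genes, 14 passed the filter, 4 rose and 2 fell. The number that rose was 2 without DMSO replicate 3, 4 or 5 or without EPZ011989 replicate 1, and the number that fell was 4 without EPZ011989 replicate 2. The median log2 fold change of the list was 0.12. Isl1, a LIM homeodomain factor of all islet cells, rose from 475 ± 7 to 588 ± 24 CPM (adjusted p = 0.00236, edgeR). Neurod1, which binds the E box, was at 155 ± 8 and 152 ± 19 CPM and did not pass (adjusted p = 0.857, edgeR). Pax6, at 104 ± 8 and 90.0 ± 8.9 CPM, did not pass (adjusted p = 0.0869), but was called lower without DMSO replicate 5 (0.0439) or EPZ011989 replicate 2 (0.0113). Nkx2-2, at 154 ± 5 and 179 ± 15 CPM, was called higher (adjusted p = 0.0369), a call lost in 8 of the 9 fits that left out a library; it held without EPZ011989 replicate 2. Rfx6, a factor of beta cell function, fell from 44.24 ± 1.78 to 18.04 ± 5.86 CPM (log2 fold change -1.29, adjusted p = 3.33e-04, edgeR).

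Of 10 listed genes of the MAF and NK6 families, Mafa and Nkx6-1 included, 8 passed the filter, 3 rose and 2 fell. The number that fell was 1 without DMSO replicate 2, 4 or 5 or without EPZ011989 replicate 1 or 3, and with upper-quartile scaling. Maf, a large MAF factor gene, fell from 230 ± 12 to 177 ± 24 CPM (adjusted p = 0.0106, edgeR). Maff, a small MAF protein gene, rose from 0.132 ± 0.114 to 0.869 ± 0.138 CPM (adjusted p = 0.0150, edgeR). It was too low to be tested when 4 libraries had to reach 1 CPM. Nkx6-2, a close relative of Nkx6-1, was at 30.7 ± 3.2 and 23.6 ± 3.5 CPM and was called lower (adjusted p = 0.0362), which did not hold without DMSO replicate 2, 4 or 5 or EPZ011989 replicate 1 or 3 (0.0654 to 0.0835).

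**Figure D4:**
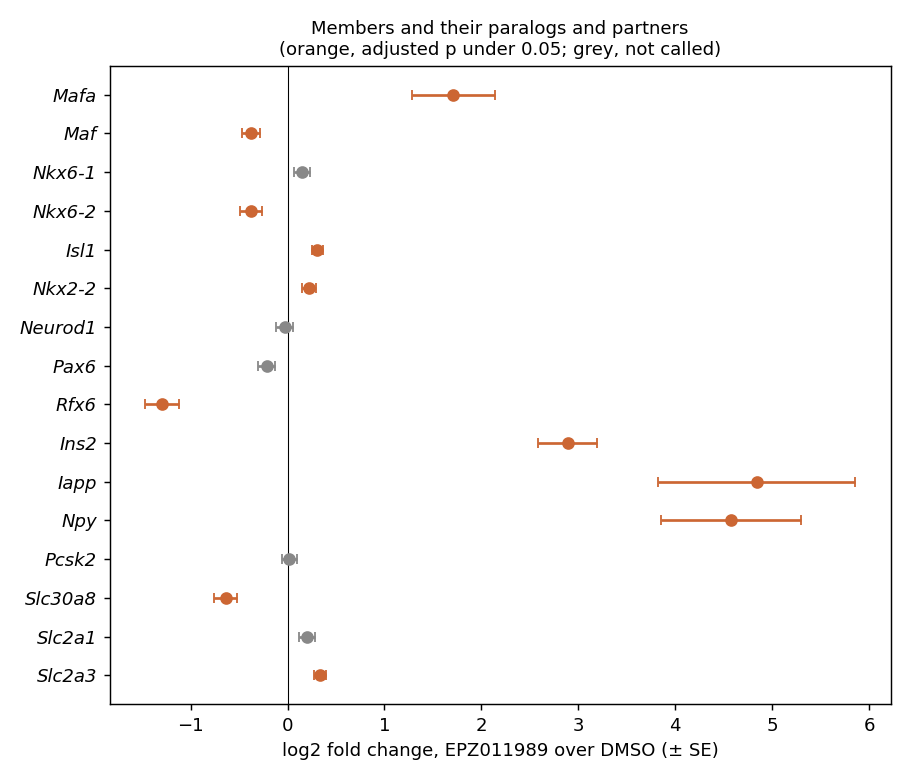
Log2 fold change (EPZ011989 over DMSO, x axis) with its SE (bars) for tested members and for relatives and partners (y axis); orange points passed the edgeR test over all 14754 genes and grey points did not. Ins2 (2.89), Npy (4.57), Iapp (4.84) and Mafa (1.71) stand to the right, while the other transcription factors plotted lie between -1.29 (Rfx6) and 0.31 (Isl1).

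Genes that work with insulin in the beta cell did not move as 1 group. Of 28 genes listed for beta cell maturity and insulin secretion, 20 passed the filter, 3 rose and 5 fell, with a median log2 fold change of 0.05. Iapp, which encodes the amyloid peptide released with insulin, had 9 counts in DMSO replicate 4, 0 in the other DMSO libraries, and 75, 51, 57 and 64 counts with EPZ011989 (adjusted p = 0.00513, edgeR). Iapp was too low to be tested when 4 libraries had to reach 1 CPM. In the main fit it was testable only through the treated libraries, so a fall could not have been seen. Slc30a8, the zinc transporter of the granule, fell from 298 ± 13 to 192 ± 42 CPM (adjusted p = 0.00284, edgeR). Of the enzymes that cut prohormones, Pcsk2 was at 2670 ± 57 and 2704 ± 259 CPM and did not pass, and Pcsk1, used for proinsulin, had 5 counts in DMSO replicate 1 and 0 elsewhere. Glp1r, the incretin receptor, had 21 counts in EPZ011989 replicate 1, 8 in replicate 4 and 0 elsewhere.

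Glucose transporter genes other than Slc2a2 held nearly all counts of that family. Of 12 listed facilitative glucose transporters 8 passed the filter, 4 rose (Slc2a3, Slc2a13, Slc2a8 and Slc2a9) and 0 fell. Only Slc2a3 kept its call in every fit that left out a library, and without any 1 library other than EPZ011989 replicate 2 the number that rose was 1 or 2. Slc2a3 went from 72.3 ± 3.7 to 91.2 ± 5.2 CPM (log2 fold change 0.34, adjusted p = 0.00352, edgeR). Slc2a1, at 96.7 ± 5.0 and 111 ± 14 CPM, did not pass (adjusted p = 0.114).

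Peptide families of the members held both silent and expressed genes. Of the insulin, IGF and relaxin ligands 9 were listed, 6 passed the filter, and 3 rose: Ins2, Insl6 (0.150 ± 0.092 to 1.72 ± 0.44 CPM, adjusted p = 0.00138, edgeR) and Rln1. Rln1, a relaxin gene, had no count in DMSO and 15, 29, 44 and 42 counts with EPZ011989 (adjusted p = 0.00135, edgeR). It was testable only through the treated libraries, so a fall could not have been seen. The number that rose was 2 with counts divided by 4 or when 4 libraries had to reach 1 CPM, a level that Rln1 did not reach. It was 4 with no filter or without EPZ011989 replicate 3. Rln3, named after its values were seen, was at 1.24 ± 0.36 and 1.75 ± 0.30 CPM and did not pass. In the neuropeptide Y family, the receptor gene Npy1r, likewise named after its values were seen, was at 47.1 ± 2.5 and 45.9 ± 3.6 CPM and did not pass, while Pyy had a count of 0 in all libraries and Ppy had 4 counts in EPZ011989 replicate 3 and 5 in replicate 4. None of 7 urocortin and corticotropin-releasing hormone genes and receptors passed the filter. Ucn was at 0 throughout, and the Ucn3 receptor gene Crhr2 had counts in EPZ011989 replicate 4 alone. Crhr1 had 5 counts in DMSO replicate 4 and 16 each in EPZ011989 replicates 2 and 3.

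The progenitor genes around Neurog3 and Pax4 went both ways. Of 23 listed, 17 passed the filter, 5 rose and 3 fell. The number that fell was 1 without DMSO replicate 2 or 5 or EPZ011989 replicate 1 or 3, and with upper-quartile scaling. Sox9, a factor of pancreatic progenitors and ducts, rose from 10.8 ± 0.9 to 22.2 ± 1.4 CPM (adjusted p = 1.32e-05, edgeR), and the peptide gene Cck from 0.0383 ± 0.0857 to 1.38 ± 0.09 CPM (adjusted p = 0.00294, edgeR). Cck, near 0 in DMSO, was testable only through the treated libraries. Genes kept low in mature beta cells rose for 6 of the 11 that passed the filter, of 14 listed, and 1 fell, or 2 without EPZ011989 replicate 2. Of all tested genes 16.2% were called higher, and by mean level from 4.68% (100 CPM and over) to 34% (1 to 10 CPM). Whether the list rose more often than other genes of the same levels was not tested. Aldh1a3, a retinal dehydrogenase known from beta cells that lose identity, had no count in DMSO and 214, 179, 123 and 177 counts with EPZ011989 (adjusted p = 2.65e-05, edgeR). It could thus be tested only because of its counts in treated cells, where a fall could not have been seen. Igfbp4 was the gene of this list that fell, from 3.80 ± 0.43 to 1.23 ± 0.27 CPM.

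Of 8 genes listed as neighbours of Ins2, 5 passed the filter, 1 rose and 0 fell. The number that rose was 2 without EPZ011989 replicate 2 or 3 and in the fit with no filter. Igf2, 11.8 kb from the Ins2 model, had no count in DMSO and 20, 19, 0 and 26 counts with EPZ011989, too few to pass the filter. H19, a noncoding RNA gene 100.5 kb away, rose from 0.376 ± 0.141 to 5.89 ± 1.70 CPM (log2 fold change 3.96, adjusted p = 5.70e-06, edgeR), with no overlap between groups. Th, on the other side at 149 kb, was at 1.72 ± 0.45 and 1.43 ± 0.20 CPM and did not pass (adjusted p = 0.479). Mrpl23, Cd81 and Tssc4, named after their values were seen, were well expressed in DMSO at 61.5 ± 7.7, 118.6 ± 6.5 and 93.0 ± 7.6 CPM, and none passed. Within 100 kb of the 10 members, 17 other gene models passed the filter, of which 4 were called higher and 0 lower. Over all tested genes the shares were 16.2% and 7.96%. None of those 17 lay near Ins1, Ins2, Nkx6-1 or Npy.

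The windows at the starts of the members differ in CG content, which was set beside the levels because CG-rich promoters are the usual sites of Polycomb in mammals. RefSeq windows were found for 7 members. Ins2, Mafa and Pax4 were without one. The median window held 7 CG dinucleotides (quartiles 3 and 20). Nkx6-1 had 40, more than 96.1% of windows, Npy 24, Neurog3 19 and Pdx1 11, while Slc2a2 had 2, Ucn3 1 and Ins1 0. Npy had more than 80.0% of windows and Neurog3 more than 71.9%. In GENCODE M21 all 250 bases before the RefSeq start of Nkx6-1 and 138 of those of Pdx1 are exon of the gene itself, so these counts come in large part from transcribed sequence. For Npy, Neurog3, Ucn3, Ins1 and Slc2a2 none of the 250 bases is. The 250 bases before their starts and that of Ucn3, for contrast, follow with each CG in capitals (GRCm38.p6, chr6:49822460-49822709 plus strand, chr10:62132840-62133089 plus strand and chr13:3945350-3945599 minus strand).
Npy upstream: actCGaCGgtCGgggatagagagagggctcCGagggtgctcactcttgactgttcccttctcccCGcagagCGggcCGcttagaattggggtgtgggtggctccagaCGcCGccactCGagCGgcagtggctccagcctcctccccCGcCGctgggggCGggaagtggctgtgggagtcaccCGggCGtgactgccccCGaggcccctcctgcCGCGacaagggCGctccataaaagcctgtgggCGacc
Neurog3 upstream: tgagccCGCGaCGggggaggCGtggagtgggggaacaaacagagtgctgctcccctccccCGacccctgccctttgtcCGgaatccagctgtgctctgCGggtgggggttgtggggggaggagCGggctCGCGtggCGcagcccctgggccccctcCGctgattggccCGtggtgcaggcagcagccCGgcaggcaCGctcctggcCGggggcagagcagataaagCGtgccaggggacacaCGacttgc
Ucn3 upstream: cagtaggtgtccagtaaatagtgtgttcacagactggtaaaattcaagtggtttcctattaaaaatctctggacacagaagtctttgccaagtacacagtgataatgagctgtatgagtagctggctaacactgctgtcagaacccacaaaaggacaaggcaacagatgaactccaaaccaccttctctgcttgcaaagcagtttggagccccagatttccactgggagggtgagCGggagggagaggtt

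**Figure D5:**
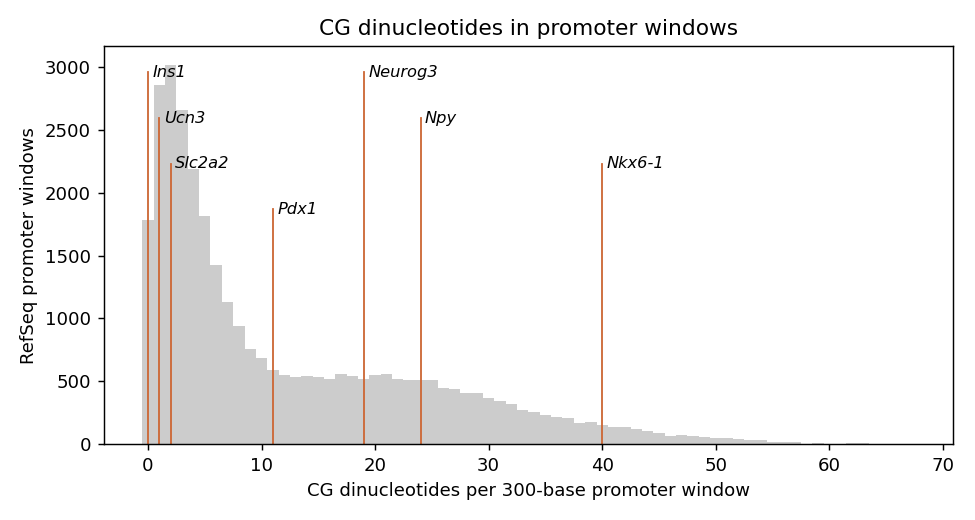
Number of RefSeq promoter windows (y axis) by their count of CG dinucleotides in 300 bases (x axis; grey bars, 32851 windows), with vertical lines at the 7 members that have a window; line height carries no meaning. Ins1 (0), Ucn3 (1) and Slc2a2 (2) lie at the low end and Npy (24) and Nkx6-1 (40) at the high end.

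The genes most like a member were sought among 11026 named genes whose mean was 1 CPM or more, by Pearson correlation of log2(CPM + 0.5) over the 9 libraries. The step between the groups enters this measure. For Ins2 they were Hpcal4 (r = 0.994), Ehd2 (0.993) and Zcwpw1 (0.993), all called higher. For Mafa they were Aplf (0.984), Efcab11 (0.970) and Klhl32 (0.968), and for Npy Col6a1 (0.997), Cuedc1 (0.995) and Nptxr (0.994), all called higher. For Nkx6-1 they were Lsm14b (0.958), Slc39a11 (0.956) and Fads2 (0.956), none of which was called.

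The libraries held 60274140 to 74651782 counts, and fewer fragments if some added about 4 counts each. The alpha cell label was checked against 12 markers, of which 10 passed the filter, 2 rose (1 without DMSO replicate 3, 4 or 5 or EPZ011989 replicate 1) and 0 fell (1 without EPZ011989 replicate 2), and their summed level was 21226 to 23365 CPM in DMSO and 17811 to 23748 CPM with EPZ011989. Gcg made up most of that sum, at 19280 ± 804 and 18633 ± 2338 CPM. Of the listed markers, Fap was at 0, Loxl4 at 0.0114 and Gc at 0.201 CPM in DMSO. Some markers of other cells rose with EPZ011989, as Ins2, Mafa and Npy did, while others fell or were not called. Of 9 fibroblast and stellate cell markers 5 passed the filter, 4 rose and 0 fell, and their sum went from 7.31 to 10.01 CPM in DMSO libraries to 30.7 to 41.8 CPM with EPZ011989. Pdgfra made up most of it, at 7.29 ± 0.96 and 27.6 ± 5.9 CPM, while Thy1, Col3a1, Acta2, Dcn and Lum had a count of 0 in every DMSO library. Summed leukocyte markers were at 1.02 to 1.89 and 4.32 to 5.75 CPM (6 in the table, 2 passed, 1 rose), and endothelial markers at 0.568 to 1.21 and 2.22 to 2.74 CPM (5 listed, 3 passed, 2 rose). Of 8 acinar markers 5 were at 0 in every library, 2 passed the filter, and 1 fell. Ductal markers, which include Sox9, went from sums of 19.6 to 25.5 CPM to 32.8 to 37.3 CPM (7 listed, 5 passed, 1 rose and 1 fell, the fall lost without DMSO replicate 1, 2 or 5 or EPZ011989 replicate 1 or 3). Of 5 delta, PP and epsilon cell markers 3 passed and Sst alone rose, from no count in DMSO to 0.866 ± 0.314 CPM, but was not tested with counts divided by 4 or when 4 libraries had to reach 1 CPM, where too few counts were left. Of the markers that rose, Thy1, Col1a1, Pdgfrb, Kdr and Sst were at 0 or near 0 in DMSO. They could thus be tested only because of their counts in treated cells, where a fall could not have been seen. Over all tested genes, 19.8% under 1 CPM, 34.0% at 1 to 10 CPM and 11.8% at 10 to 100 CPM were called higher. Whether a marker list rose more often than genes of the same levels was not tested. The part of the markers of other cells in the results for the 10 members was not tested either.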

How the data were processed

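RNA-seq of 9 αTC1 libraries was grouped by the treatment in the labels. Of the 2 tables the authors deposited, the one of raw gene counts was used; the normalized one, which lists genes by symbol only, was not. Per the submitters' processing notes, the tools were HISAT2, StringTie and DESeq2 and the build mm10, with no roles or versions. Strand use and annotation are not given in the sources used here. Positions, lengths and transcripts come from GENCODE M21 (GRCm38, the assembly of mm10), where 32059 of 33212 gene identifiers matched, and promoter sequences from RefSeq (GRCm38.p6).

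Counts passed through filterByExpr and TMM scaling before the test in edgeR 4.0.16 (R 4.3.3; robust quasi-likelihood fit, treatment as the only term, Benjamini-Hochberg adjustment over 14754 genes, two-sided). Library totals were 60274140 to 74651782 counts. The SE was taken as the absolute log2 fold change over the root of F. The limit for a count of 0 was 12 counts, or 3 fragments if each adds 4; it is higher than needed where fragments add fewer. Without molecular identifiers, limits and intervals cover counting error only. The fit was tested on simulated data. Alternatives were other scalings and filters, counts divided by 4, DESeq2 1.42.0, limma-voom (limma 3.58.1), a block on the replicate number, and fits with libraries left out.

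The members and lists were chosen with earlier results of these data known. Genes named beside the members were up to 4 called genes of each list by smallest p, a set of relatives and partners, and the 3 genes most like each tested member; some of these are not reported here. Marker genes at 0 in DMSO are named for their lists.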

Additional observations from a re-analysis of the deposited data

Results flagged for a closer look

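A library stood apart from the others of its group for 9 genes among the 67 checked in each group, by the gap to its nearest neighbour as a share of the group's range. Chance alone gives about 1 in 20 groups, and groups with counts in a single library always meet this rule. For 2 members the library was the only one with counts: Pax4 in EPZ011989 replicate 3 (0.119 CPM) and Neurog3 in EPZ011989 replicate 2 (0.0844 CPM), both with 0 in the 3 other EPZ011989 libraries. The same held for Crhr2 in EPZ011989 replicate 4 (0.126 CPM) and Nkx6-3 in EPZ011989 replicate 1 (0.0928 CPM). In DMSO it held for Iapp in replicate 4 (0.152 CPM), Cck in replicate 2 (0.192 CPM), Crhr1 in replicate 4 (0.0844 CPM) and Pcsk1 in replicate 1 (0.0677 CPM). Ucn2, a paralog of Ucn3, was at 0.286 CPM in DMSO replicate 5 and at 0 to 0.0506 CPM in the other DMSO libraries. No library stood apart in this way for Ins2, Mafa, Npy or Nkx6-1.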

How the results depend on the processing

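Ins2 and Npy were called higher in all 19 alternatives, with log2 fold changes of 2.68 to 3.08 and 4.24 to 5.52 and adjusted p up to 0.00190 and 0.0115. Mafa was called in 18 (log2 fold change 1.44 to 1.94). It was lost with the replicate block (1.93, adjusted p = 0.0571), which left 2 members higher. Nkx6-1 stayed positive (0.10 to 0.21) and was called only without EPZ011989 replicate 2. Over single libraries left out, 3 to 4 members were higher and 0 lower. The labels do not say whether same-numbered libraries were handled together. Deviations of same-numbered libraries correlated at r = -0.206 to 0.0825, and no EPZ011989 library correlated best with its own number. Such correlations cannot settle whether the numbers mark pairs. With the replicate block, all genes called higher numbered 1550 in place of 2388, and all genes called lower 471 in place of 1174; of the insulin gene activators 0 were called higher in place of 4 (Isl1 0.31, adjusted p = 0.0502). Upper-quartile factors gave 776 lower. Single libraries left out gave 781 (without EPZ011989 replicate 3) to 2377 (without replicate 2) lower. Scaling moved the median log2 fold change of all genes by at most 0.05. Values near 0 changed sign without being called. Gcg was at 0.00537 with upper-quartile factors and ran from -0.127 to 0.0250 over single libraries left out. Neurod1 was at 0.0216 with upper-quartile factors, 0.0175 with library size alone and 0.0100 without EPZ011989 libraries 2 and 4, and ran from -0.0960 to 0.0317 over single libraries left out. Pcsk2 ran from -0.0319 to 0.0776 over single libraries left out. The cause of these shifts was not tested. Depth limits Ins1, Pdx1, Ucn3, Pax4, Neurog3 and Slc2a2, which stayed under 12 counts in every library.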
